A study of Mus musculus with 4 samples.

Results

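The genes described here are 32 members of the Wnt signalling pathway, chosen by family and role, with earlier results of these data known: 19 Wnt ligand genes, 8 Frizzled receptor genes, the co-receptor genes Lrp5 and Lrp6, the effector gene Ctnnb1, the feedback target Axin2 and the inhibitor gene Dkk1. They are 32 of 20807 autosomal protein-coding genes of the GENCODE vM21 annotation. Whole-genome bisulfite sequencing (WGBS), which reads the methylation level of a CpG as the percentage of covering reads in which its cytosine was not converted, was run on brains of mouse embryos at E11.5, taken from forebrain to hindbrain above the otic vesicle. There were 4 groups of 1 library each, and each library came from 1 male embryo. Embryos of the 129S6.cg strain were wild type for Tet1 (WT) or homozygous for the Tet1 tm1Koh allele (KO), in which a cassette sits at the first coding ATG, and their dams were fed 30 ppm folic acid (excess FA) or 3 ppm folic acid (control FA), so that the groups were KO at 30 ppm, WT at 30 ppm, KO at 3 ppm and WT at 3 ppm. The diets of all 4 groups also held succinylsulfathiazole, an antibiotic that lowers folate made by gut bacteria. The KO allele was made in another strain and bred onto 129S6; Tet1 lies on chromosome 10, which holds none of the 32 genes. In a sample list that the study gives for a second assay, the WT embryos are given as normal and those of the KO as having a neural tube defect. No embryo shares its litter with another, so genotype, phenotype and litter cannot be told apart. With 1 library per group no value has an SD, and a test on the reads compares libraries, not conditions.

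Wnt proteins are secreted, lipid-modified ligands that bind Frizzled receptors and the co-receptors Lrp5 and Lrp6. In the canonical branch this binding stops the breakdown of β-catenin, the product of Ctnnb1, which then enters the nucleus and switches on targets such as Axin2, while Dkk1 blocks Lrp5 and Lrp6 from outside the cell. In the embryonic brain Wnt signals from the dorsal midline and the midbrain-hindbrain boundary pattern the neural tube and drive the growth of progenitors. Tet1 encodes a dioxygenase that oxidises 5-methylcytosine, the first step of active demethylation. Per the study's methods the WGBS libraries were converted by bisulfite alone. Another assay of the study added an oxidation step to map 5-methylcytosine itself. A level given here can therefore include the oxidised form, 5-hydroxymethylcytosine.

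Levels are methylated reads over all reads at scored CpGs, those with 5 or more reads in every library. Each gene was read in 4 places: a start window within 1 kb of the annotated gene start, an upstream flank 1 to 3 kb before it, a downstream flank 1 to 3 kb after it, and the gene outside the start window (gene body, which takes in the downstream flank as far as the gene reaches). A gene was called hyper or hypo when Fisher's exact test on the summed reads (two-sided, Benjamini-Hochberg adjusted over all genes with that region) gave an adjusted p under 0.05 and the level differed by at least 10 percentage points. All 32 genes had at least 3 scored CpGs in every place. Mean depth was 13.2 to 21.2 reads per autosomal CpG over the libraries, and mitochondrial CpGs, the background for incomplete conversion, read 0.914% to 0.938% methylated. By its CpG density the start window was high in 24 of the 32 genes (75.0%, against 50.1% of all genes). Such dense windows were thinly covered: a median of 15.5% of the CpGs of a member's start window was scored, against 24.6% for all high-density start windows, so start-window levels lean on the CpGs that were covered. The reads came from bulk brain, in which a change within cells and a change in the mix of cells cannot be told apart, and they do not show transcript levels. Start windows of 8 neural genes and 12 genes of other cell types were read as a check of the tissue. None of the latter 12 was called, with KO minus WT differences from -5.11 to 9.48 points. Of the neural windows, whose differences ran from -1.38 to 33.2 points, that of the neuron marker Tubb3 (15 CpGs) was called hyper in both diets (53.4% in KO against 20.2% in WT at 30 ppm, 54.5% against 37.0% at 3 ppm). At 30 ppm this was more than in any start window of the 32 genes. Its downstream flank was called at 3 ppm (63.9% against 37.9%). Flanks were called in both lists. Col1a1, a collagen gene of mesenchyme, was called hyper in both diets in the upstream flank (57.0% in KO against 23.4% in WT at 30 ppm, 56.7% against 19.5% at 3 ppm) and in the downstream flank (50.7% against 27.6%, then 45.6% against 32.5%). Twist1, also of mesenchyme, was called in the downstream flank at 3 ppm (16.8% against 6.67%). Of the 8 neural genes, 1 upstream flank was called at 30 ppm and 2 downstream flanks at 3 ppm, and no gene body of either list was called. What part the share of neurons or mesenchyme in the samples had in the results on the 32 genes was not tested.

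The sequences below are the stretches, of up to 300 bases outside UTRs, with the most scored CpGs in the authors' hyper differentially methylated regions (DMRs) that were called in KO against WT in both diets at a member; they are shown because these are the places where the authors' own calls put a Wnt gene higher in KO whichever the diet. Each is written 5′ to 3′ on the strand of its gene, from GRCm38, with every CpG in capitals.
Dkk1, chr19:30547618-30547917, minus strand: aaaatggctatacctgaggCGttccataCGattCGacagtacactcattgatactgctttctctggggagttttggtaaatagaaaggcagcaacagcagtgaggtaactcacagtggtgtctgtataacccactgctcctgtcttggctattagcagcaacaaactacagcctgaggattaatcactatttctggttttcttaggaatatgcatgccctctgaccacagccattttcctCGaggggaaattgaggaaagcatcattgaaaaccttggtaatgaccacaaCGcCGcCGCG
Wnt3, chr11:103811322-103811621, plus strand: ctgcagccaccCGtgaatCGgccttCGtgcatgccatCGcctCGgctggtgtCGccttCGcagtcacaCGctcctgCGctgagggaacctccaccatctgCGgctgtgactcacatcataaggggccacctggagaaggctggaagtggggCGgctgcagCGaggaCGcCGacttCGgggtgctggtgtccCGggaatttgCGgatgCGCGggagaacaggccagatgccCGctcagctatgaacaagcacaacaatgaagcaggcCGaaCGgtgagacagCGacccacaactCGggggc
Wnt3a, chr11:59284106-59284405, minus strand: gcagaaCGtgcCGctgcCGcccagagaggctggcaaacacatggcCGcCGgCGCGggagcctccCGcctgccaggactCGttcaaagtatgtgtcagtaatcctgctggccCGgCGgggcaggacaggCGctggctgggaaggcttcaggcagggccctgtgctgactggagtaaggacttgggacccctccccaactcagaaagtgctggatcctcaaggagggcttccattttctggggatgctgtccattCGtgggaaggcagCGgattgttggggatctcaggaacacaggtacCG
Fzd1, chr5:4755886-4756185, minus strand: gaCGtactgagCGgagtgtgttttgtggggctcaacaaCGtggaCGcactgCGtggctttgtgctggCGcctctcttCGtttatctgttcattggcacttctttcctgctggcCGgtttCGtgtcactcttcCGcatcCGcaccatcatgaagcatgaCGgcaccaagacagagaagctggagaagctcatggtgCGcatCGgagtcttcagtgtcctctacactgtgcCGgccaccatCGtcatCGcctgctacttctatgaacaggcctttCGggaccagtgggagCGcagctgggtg
Wnt8b, chr19:44509565-44509700, plus strand: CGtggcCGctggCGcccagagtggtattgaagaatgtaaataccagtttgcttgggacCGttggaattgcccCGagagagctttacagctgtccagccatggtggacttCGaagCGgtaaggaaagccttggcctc

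The Dkk1 stretch begins 1748 bases after the gene start, holds 8 CpGs and runs over 95 coding bases and the neighbouring intron. The Fzd1 stretch is all coding sequence of the gene's single exon, 1850 to 2149 bases after the start, and holds 19 CpGs, all scored. The Wnt3 stretch holds 24 CpGs, 15 of them scored, with 266 of its 300 bases coding. The Wnt8b stretch lies 16093 bases into its gene with 116 of 136 bases coding, and the Wnt3a stretch is intronic, 6347 bases in. None of the 5 is at a start window. The GC content ran from 45.7% at Dkk1 to 63.7% at Wnt3, and the observed over expected CpG ratio from 0.512 at Dkk1 to 0.791 at Wnt3.

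In these printed stretches the Dkk1 CpGs were methylated at 76.4% in KO against 26.1% in WT at 30 ppm, and at 80.4% in KO against 34.7% in WT at 3 ppm. At Fzd1 the level was 60.5% in KO against 7.78% in WT at 30 ppm, and 55.7% against 14.2% at 3 ppm. At Wnt3 it was 77.8% against 28.8% and 87.4% against 46.9%. Both KO libraries lay above both WT libraries in all 5 stretches. KO above WT within each diet is how they were chosen, so no test is given.

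The KO libraries carried more methylation than the WT libraries at many of the Wnt genes in both diets, in the flanks 1 to 3 kb from the start and, at several ligand genes, in the start window. Of 32 genes, 24 (75%) were called hyper in at least 1 place and diet, against 42% of all genes scored in every place. In the same place in both diets 9 (28.1%) were called, against 14.6% of those genes. Calls in both diets were made for 3 start windows, 2 upstream flanks, 5 downstream flanks and 4 gene bodies, where the shares of all genes were 8.01%, 1.73%, 5.41% and 1.4%. No member was called hypo in any place. In the start window 6 genes were called hyper at 30 ppm and 8 at 3 ppm, that is 18.8% and 25% of members, against 15.4% and 16.6% of all genes. In this place the excess over all genes was lost at some settings. With CpGs of 2 or more reads 3 start windows (9.38%, against 12.8%) were called at 30 ppm, and with a limit of 20 points 1 (3.12%, against 3.75%). At 3 ppm 2 of 16 (12.5%, against 14.4%) were called with CpGs of 10 or more reads, and 2 of 21 (9.52%, against 10.1%) within 500 bases of the start. In the upstream flank the counts were 6 and 5 (18.8% and 15.6%), against 5.21% and 4.56% of all genes. In the downstream flank they were 8 and 11 (25% and 34.4%), against 12.4% and 10.5%. In the gene body they were 5 and 6 (15.6% and 18.8%), against 3.07% and 2.72%. Of all genes, those called hypo made up 0.331% and 0.381% of start windows at 30 and 3 ppm, 0.0756% and 0.222% of upstream flanks, 0.1% and 0.295% of downstream flanks, and 0.0461% and 0.0665% of gene bodies. Of the 55 hyper calls over places and diets, 23 also passed when z was divided by its robust SD over all genes. These are 8.98% of the 256 tests on members, against 1.8% of the tests on all genes. That SD is a single value per place and comparison. It takes in any spread of z, so it does not measure how far reads are dependent. A gene body takes in CpGs of its downstream flank, so the same CpGs can be counted in both places. Wnt2 in the start window, Wnt11 in the upstream flank, and Fzd1 and Dkk1 in the downstream flank and gene body passed the scaled z in both diets.

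**Figure D1:**
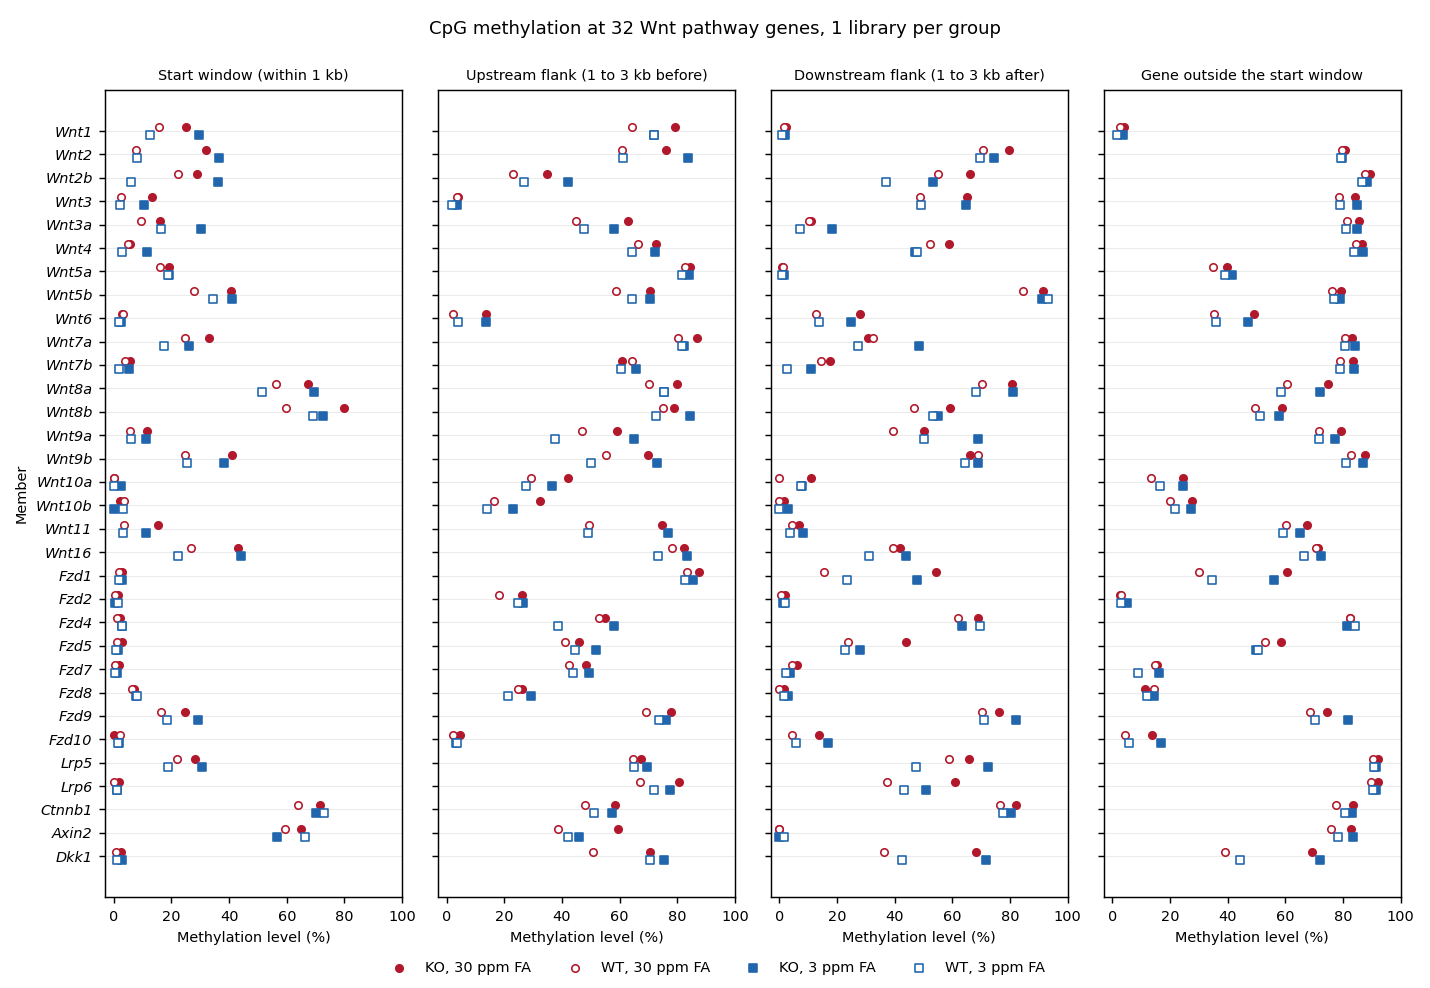
Methylation level (%, x axis) of the 32 genes (rows) in the 4 places read per gene, with 1 point per library: filled symbols KO, open symbols WT, red circles 30 ppm FA, blue squares 3 ppm FA. Most Frizzled start windows sit near 0 in all 4 libraries, and the filled symbols lie to the right of the open ones at Fzd1 and Dkk1 in the downstream flank.

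In the upstream flank the median KO minus WT difference over the 32 genes was 9.10 points (30 ppm) and 6.27 points (3 ppm), where the medians over all genes were 2.42 and 1.16 points. In the downstream flank the members' medians were 6.73 and 5.22 points, against 3.26 and 1.83. In the start window they were 5.85 and 3.45, against 3.93 and 3.31, and in the gene body 4.81 and 4.97, against 1.86 and 0.716. KO exceeded WT in 31 and 30 of the 32 upstream flanks at 30 and 3 ppm (96.9% and 93.8%, against 70.4% and 61.3% of all genes). In the start windows it did so in 28 and 25 (87.5% and 78.1%, against 77.3% and 75.0%), so that the share at 3 ppm was near that of all genes. The members also differed from all genes in their WT levels: 43.8% of their upstream flanks had a mean WT level between 10% and 60%, against 11.3% of all genes, and in that band the median difference was 11.6 points in members and 6.58 in all genes. At WT levels of 60% and over it was 7.13 points in the 15 member flanks and 1.42 in all genes. In the gene body the band from 10% to 60% gave 7.23 points in 12 members and 7.72 in all genes, and that of 60% and over, which held 17 members, gave 3.20 against 1.21. Under 10% the members were below all genes in every place: 1.204 against 2.48 points in the start window, where 18 of the 32 members lay, 0.996 against 1.95 upstream, 1.90 against 2.27 downstream and 1.76 against 2.68 in the gene body.

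Methylation of the 32 genes was lowest in the 500 bases before the gene start and rose unevenly on both sides. In bins of 500 bases, pooled over the members, WT was at 10.4% (30 ppm) and 10.6% (3 ppm) in the last bin before the start, and KO at 13.7% and 15.02%. Between 1000 and 1500 bases before the start KO was at 49.4% and 52.7% and WT at 38.3% and 37.9%, a difference of 11.03 and 14.8 points. Between 2000 and 2500 bases after the start KO was at 46.3% and 45.5% and WT at 34.5% and 35.2%, a difference of 11.8 and 10.3 points. In the first 500 bases after the start (85 CpGs) KO was at 30.1% and 24.7% and WT at 19.6% and 19.1%. The difference there was 10.5 and 5.57 points. In the outermost bin upstream the difference was -0.346 and 2.26 points. Over all genes the largest bin difference was 6.69 points at 30 ppm, 500 to 1000 bases after the start (3.95 at 3 ppm). In that bin members were lower at 30 ppm, with 3.40 points, and higher at 3 ppm, with 7.26. Over genes with a high-density start window the largest was 7.84 points at 30 ppm (6.49 at 3 ppm), 1000 to 1500 bases after the start. Members there differed by 3.05 and 4.98 points. The low region was wider in members: between 1500 and 2000 bases before the start WT at 30 ppm was at 51.8% in members and 76.7% in all genes.

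**Figure D2:**
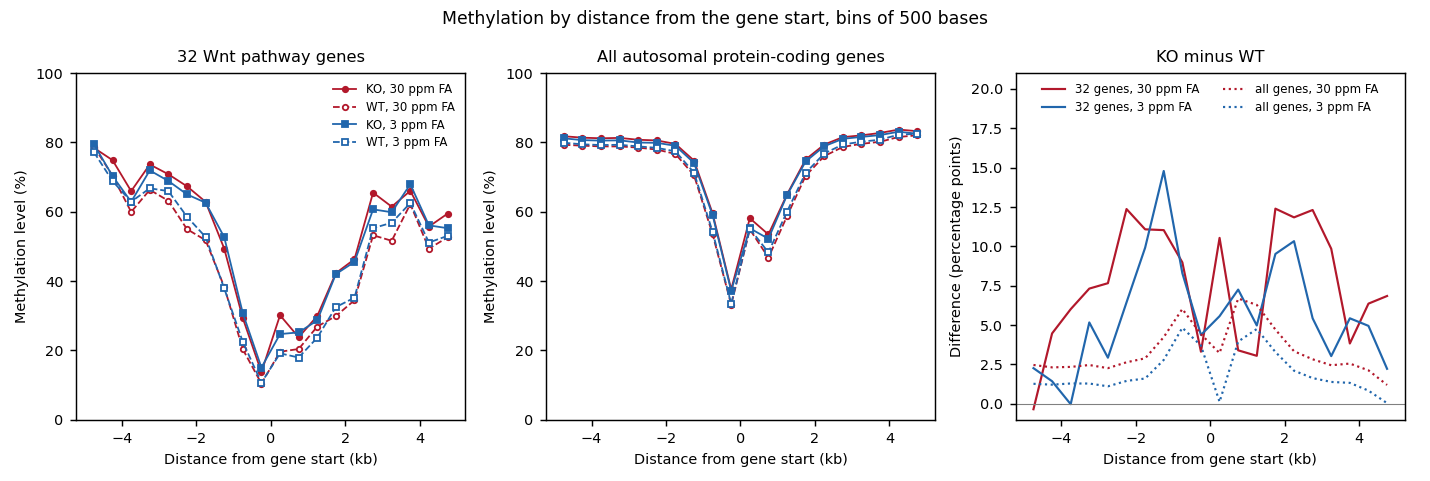
Methylation level (%) by distance from the gene start (kb) in bins of 500 bases for the 32 genes (left) and all autosomal protein-coding genes (middle), and the KO minus WT difference in percentage points (right). The members' low region is wider, and the difference is larger at 1000 to 1500 bases before the start (11.03 and 14.8 points at 30 and 3 ppm) than in the bin just before it (3.31 and 4.38 points). In the first bin after the start it is 10.5 and 5.57 points. At 1000 to 1500 bases after the start it is 3.05 and 4.98 points, and in the next bin 12.4 and 9.52 points.

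Among the 19 ligand genes the start windows held most of the start calls: 9 of them (47.4%, against 24% of all start windows) were called in at least 1 diet, and 3 (15.8%, against 8.01%) in both. Wnt2, a ligand known for its roles in lung and placenta, had the largest mean difference of these windows. Its start window on chromosome 6 (22 CpGs) was at 32.1% in KO against 7.73% in WT at 30 ppm, and at 36.3% in KO against 8.19% in WT at 3 ppm. Both KO libraries were well above both WT libraries, by 24.4 points (adjusted p = 5.1e-08, Fisher's exact test) and 28.1 points (4.2e-17). Wnt16, known for its role in bone, read 43.1% and 26.8% in KO and WT at 30 ppm and 43.95% and 22.2% at 3 ppm, differences of 16.3 points (adjusted p = 0.019, Fisher's exact test) and 21.8 points (0.0001). Wnt9b, a ligand of kidney and face development, read 40.9% and 24.6%, then 38.1% and 25.2% (adjusted p = 0.00021 and 0.00018, Fisher's exact test). The Wnt9b difference came from the outer part of the window: within 500 bases of the start it was -0.915 and -2.61 points.

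Other ligand start windows passed in 1 diet. At 30 ppm the call was made for Wnt8b (79.7% in KO, 59.7% in WT), Wnt5b (40.8%, 27.6%) and Wnt3 (13.2%, 2.40%), the last of which showed 10.6% and 2.16% at 3 ppm, under the 10-point limit. At 3 ppm it was made for Wnt2b (36%, 5.88%), Wnt8a (69.3%, 51.4%) and Wnt1 (29.5%, 12.6%), the signal of the midbrain-hindbrain boundary. At 30 ppm Wnt1 read 25.0% and 15.7%, Wnt8a 67.5% and 56.1%, and Wnt2b 28.9% and 22.2%. The Wnt2b window rests on 5 CpGs and 34 to 50 reads per library. At the opposite end, Wnt6, Wnt7b, Wnt10a and Wnt10b were at or under 5.76% in every library. The Wnt10a window rests on 3 CpGs and 28 to 42 reads per library, and that of Wnt10b on 5 CpGs and 29 to 60 reads. Wnt5a, a ligand of the noncanonical branch, was between 15.9% and 19% in all 4 libraries.

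In the upstream flank Wnt11, another noncanonical ligand, and Wnt2 were called in both diets. Wnt11 (17 CpGs) read 74.5% in KO against 49.5% in WT at 30 ppm, then 76.9% and 48.9% at 3 ppm, so that KO exceeded WT by 25.0 points (adjusted p = 0.00015, Fisher's exact test) and 28.0 points (5.2e-09). Of its 17 CpGs, 14 were higher in KO in both diets and 1 was lower in both. Wnt2 (19 CpGs) read 76.1% and 60.9%, then 83.8% and 61.1%, differences of 15.3 and 22.7 points (adjusted p = 0.0067 and 4.2e-08, Fisher's exact test). Wnt3a, the roof plate ligand needed for the hippocampus, was called at 30 ppm (63.1%, 44.9%). Wnt9a (65.1%, 37.5%) and Wnt9b (73.0%, 50.0%) were called at 3 ppm. At the other diet the differences of these 3 were 10.3, 12.2 and 14.7 points, which did not pass.

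In the downstream flank Wnt3, Wnt6 and Wnt8a were called in both diets. Wnt3, a canonical ligand, read 65.2% and 48.9% at 30 ppm and 64.6% and 49.2% at 3 ppm. Wnt6 read 28.1% and 12.8%, then 24.9% and 13.6%, although its start window was unmethylated. Wnt8a, an early embryonic ligand, read 80.7% and 70.3%, then 80.9% and 68.3%. Calls in 1 diet were Wnt8b at 30 ppm (59.3%, 46.6%) and, at 3 ppm, Wnt2b (53.4%, 37.1%), Wnt7a (48.5%, 27.2%), a ligand of brain vessel growth and synapses, and Wnt16 (44.03%, 31.0%). In the gene body Wnt6 (49.3% and 35.4%, then 47.1% and 36.1%) and Wnt8a (74.7% and 60.5%, then 72.2% and 58.4%) were called in both diets, and Wnt10a (24.5%, 13.4%) at 30 ppm. Wnt4, Wnt5a, Wnt7b and Wnt10b had no call by Fisher's exact test in any place. The Wnt7b downstream flank rests on 5 scored CpGs. Some members are neighbours: Wnt1 lies 11707 bases from Wnt10b, Wnt3 24329 from Wnt9b, Wnt3a 16176 from Wnt9a and Wnt6 6194 from Wnt10a.

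**Figure D3:**
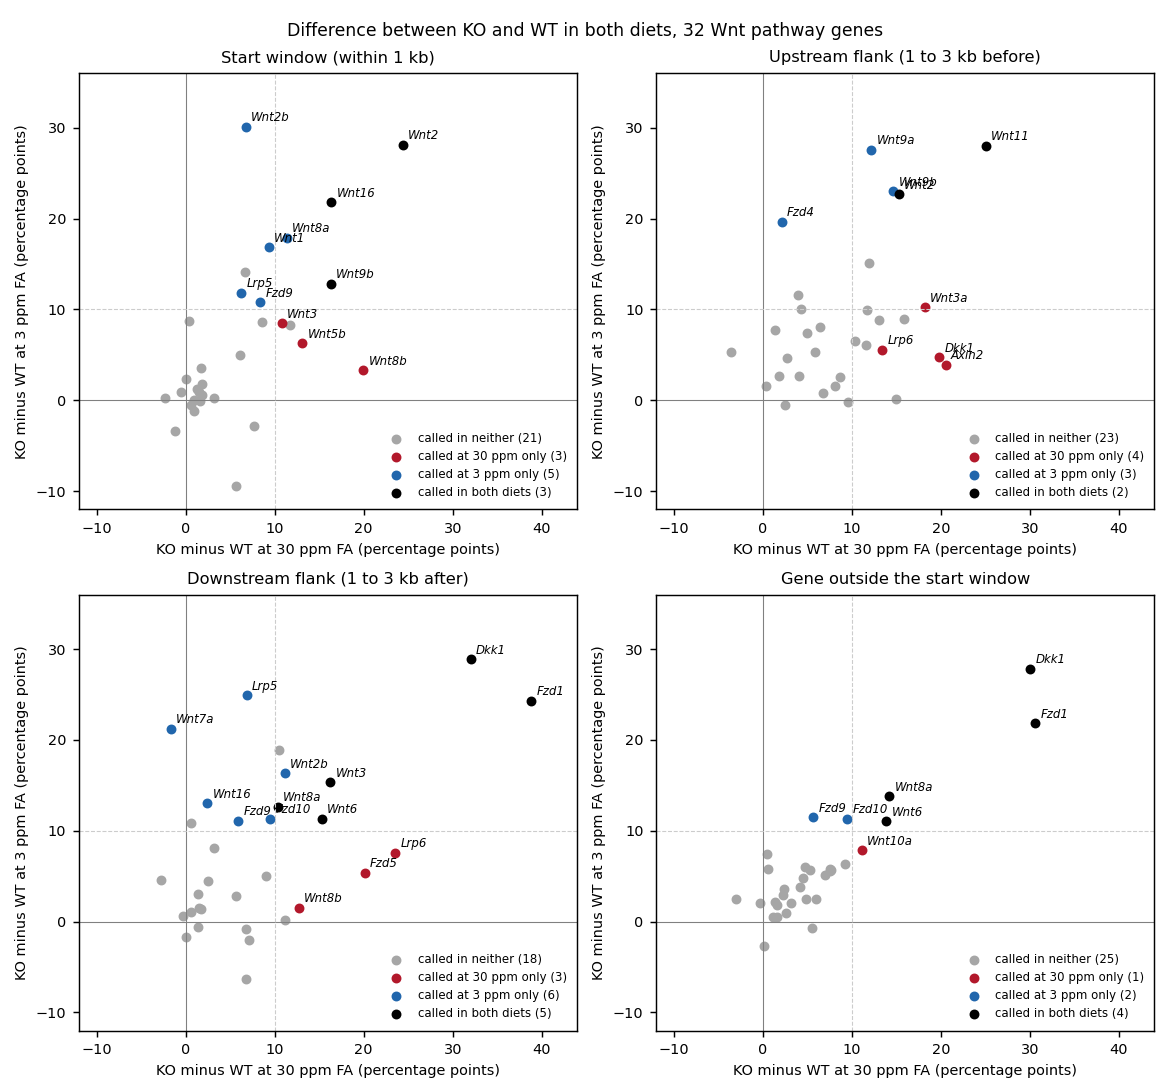
KO minus WT methylation difference (percentage points) at 30 ppm FA (x axis) and 3 ppm FA (y axis) for the 32 genes in each of the 4 places, with dashed lines at 10 points and colours for the diets in which a gene was called. The axes share no library. Dkk1 and Fzd1 stand at the upper right in the downstream flank and gene body, Wnt2 in the start window, and Wnt11 in the upstream flank.

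Among the 8 Frizzled genes, which encode the membrane receptors for Wnts, the start windows were nearly free of methylation. Fzd1, Fzd2, Fzd4, Fzd5, Fzd7, Fzd8 and Fzd10 were at or under 8.08% in every library, and by Fisher's exact test only Fzd9 was called, at 3 ppm (29.2% in KO, 18.4% in WT; 24.8% and 16.5% at 30 ppm). The largest difference of the family lay 1 to 3 kb into Fzd1, an intronless gene at chr5:4753839-4758035. This flank (56 CpGs) was at 54.2% in KO against 15.4% in WT at 30 ppm, and at 47.7% in KO against 23.4% in WT at 3 ppm. Both KO libraries were well above both WT libraries, and the differences of 38.8 points (adjusted p = 4e-40, Fisher's exact test) and 24.3 points (2.1e-20) were past the threshold. Of the 56 CpGs, 46 were higher in KO in both diets, 0 were lower in both and 4 were unmethylated in all 4 libraries. Its start window stood at 2.90% and 1.69%, then 2.90% and 1.63%. The gene body, which overlaps that flank, read 60.7% and 30.1%, then 56.3% and 34.5%.

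Fzd5, a receptor of eye and gut development, was called in the downstream flank at 30 ppm (43.8% in KO, 23.7% in WT; 28.1% and 22.7% at 3 ppm). Fzd9 (82.1%, 70.9%) and Fzd10 (17.01%, 5.70%) were called there at 3 ppm. The Fzd9 gene body was also called at 3 ppm (81.7% in KO, 70.2% in WT) and read 74.4% and 68.8% at 30 ppm. Fzd10 read 13.8% and 4.36% at 30 ppm, a difference of 9.45 points, just under the 10-point limit. Fzd10 is short enough that its gene body holds the same CpGs as its flank. Fzd4, a receptor also used by norrin in retinal vessels, was called in the upstream flank at 3 ppm (58.2%, 38.6%) but read 54.8% and 52.7% at 30 ppm. Fzd2, Fzd7 and Fzd8 had no hyper or hypo call by Fisher's exact test in any place, and in Fzd2 the downstream flank was at or under 1.89% in every library.

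The co-receptor genes were called in their flanks. Lrp6 was higher in KO at 30 ppm in the downstream flank (60.9% in KO, 37.4% in WT) and in the upstream flank (80.5%, 67.05%). At 3 ppm the same flanks read 50.8% and 43.2%, and 77.4% and 71.8%, and were not called. Lrp5 was called at 3 ppm in the downstream flank (72.3%, 47.4%) and the start window (30.7%, 18.9%), with 65.7% and 58.9%, and 28.2% and 22.0%, at 30 ppm. The Lrp5 start difference was -0.174 points at 3 ppm within 500 bases of the start. Both gene bodies were at or above 89.6% in all 4 libraries.

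With places set by its annotated start, Ctnnb1 was called by Fisher's exact test in none of the 4. Its body holds an intronic hyper DMR of the authors at 30 ppm (70.9% in KO, 25.5% in WT). Its levels in KO and WT were 83.4% and 77.5% in the gene body at 30 ppm and 83.3% and 80.8% at 3 ppm. Its annotated gene start lies 4184 bases before the start of its principal transcript, so its start window (63.9% to 73.0%) does not cover the main promoter. Counted from the principal start, the DMR lies in the downstream flank. For Wnt7b the principal start lies 891 bases from the annotated start. With principal starts 9 and 13 member downstream flanks were called hyper at 30 and 3 ppm (28.1% and 40.6%, against 12.2% and 10.1% of all genes). With annotated starts 8 and 11 were called. Axin2, the negative feedback regulator that Wnt signalling itself induces, was called in the upstream flank at 30 ppm (59.3% in KO, 38.8% in WT), while at 3 ppm it read 46.0% and 42.1%. Its start window had 7 scored CpGs of 156 and read 64.9% and 59.3%, then 56.8% and 66.2%. Its downstream flank (6 CpGs, 35 to 68 reads per library) was at or under 1.72%.

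Dkk1, the secreted inhibitor at chr19:30545863-30549665, was unmethylated at its start (2.45% in KO against 0.601% in WT at 30 ppm, 2.86% and 1.10% at 3 ppm). In the downstream flank (33 CpGs) it read 68.3% in KO against 36.3% in WT at 30 ppm, then 71.5% and 42.6% at 3 ppm. KO exceeded WT by 32.01 points (adjusted p = 9.3e-22, Fisher's exact test) and 28.9 points (2.1e-24). Of these CpGs 26 were higher in KO in both diets and 1 was lower in both. In the upstream flank the call was made at 30 ppm (70.6%, 50.8%). There WT at 30 ppm was the low library of the 4, since KO and WT read 75.4% and 70.7% at 3 ppm.

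**Figure D4:**
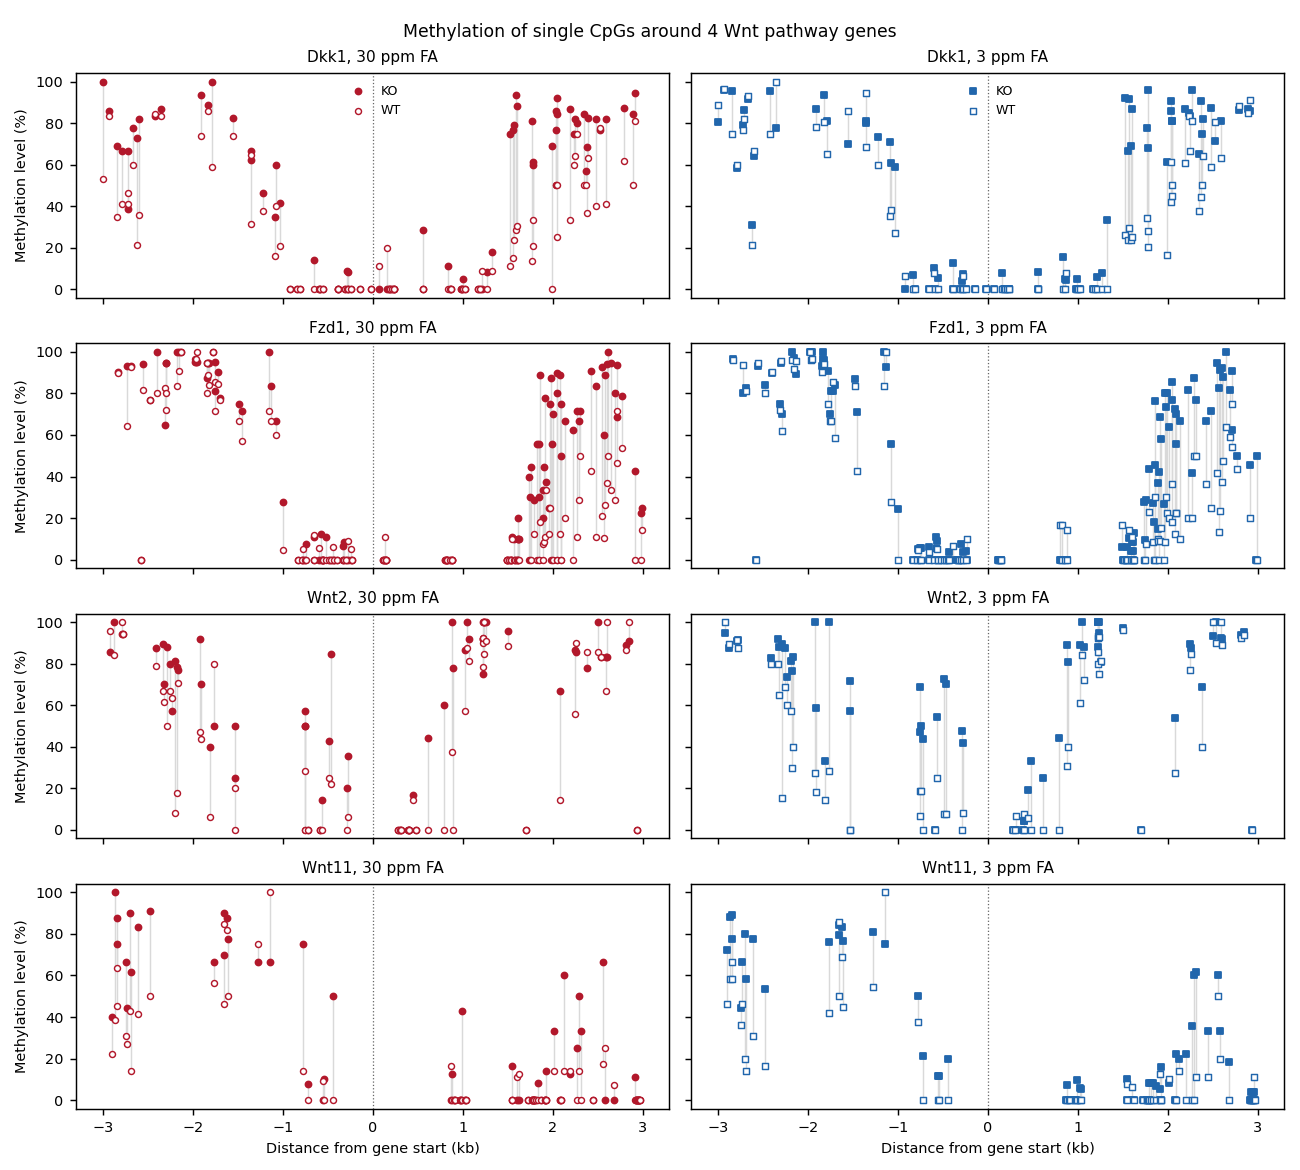
Methylation level (%) of every scored CpG within 3 kb of the gene start (x axis, kb) of Dkk1 (85 CpGs), Fzd1 (124), Wnt2 (64) and Wnt11 (70), at 30 ppm FA (left, circles) and 3 ppm FA (right, squares), with KO filled, WT open and a grey line joining them. At Dkk1 and Fzd1 the CpGs near the start are close to 0 in KO and WT, and beyond the low region after the start KO is above WT at 26 of 33 and 46 of 56 CpGs of the downstream flank in both diets.

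A model over all 4 libraries was additive in genotype and diet (limma on log2 of methylated over unmethylated reads, 1 added to each). It sets the genotype difference against what genotype and diet together leave unexplained. It has 1 residual degree of freedom per gene and a variance shared across genes. In the start window 6 of 32 members were called for genotype (7.5% of all genes), in the upstream flank 3 (1.17%), in the downstream flank 4 (4.18%) and in the gene body 8 (6.95%). All of these calls were higher in KO, and they fell on 13 genes. The calls outside the gene body were lost under some settings. With CpGs of 10 or more reads 0 were made in the start window and in either flank, 0 start windows were called within 500 bases of the start or on the fraction scale, and 0 upstream flanks with reads thinned to the shallowest library. Wnt2 and Wnt11 were called in the start window and the upstream flank, with log2 ratios of 2.53 ± 0.27 (SE) and 1.81 ± 0.27 in the start window (limma, adjusted p = 0.026 for both). Fzd1 (2.13 ± 0.34), Dkk1 (1.83 ± 0.29), Fzd10 (1.74 ± 0.29) and Wnt6 (1.23 ± 0.29) were called in the downstream flank (limma, adjusted p = 0.012 to 0.046). In the gene body these 4 were called too, with Wnt1, Wnt8a, Wnt9b and Wnt10a. Wnt3, Wnt16, Fzd7 and Dkk1 were called in the start window and Wnt6 in the upstream flank. Fzd7 and Dkk1 were called at levels of 0.244% to 2.86%, since the log ratio weighs small levels strongly. In points their differences were at most 1.85. The Wnt1 gene body was also low, at 1.62% to 3.95%, with differences of 1.40 and 2.12 points at 30 and 3 ppm. The Wnt6 upstream flank (5 CpGs) had 1 methylated read of 48 in WT at 30 ppm and 3 of 78 at 3 ppm. In the Wnt11 start window these were 3 of 83 and 3 of 99. Fisher's exact test called none of these places. At an unadjusted p under 0.05, limma had 19, 12, 17 and 19 of 32 members in the 4 places, against 28.9%, 16.0%, 22.3% and 23.9% of all genes.

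Few of these genes differed between the diets. Between 30 and 3 ppm, no start window and no gene body of the 32 was called in KO (1.2% and 0.138% of all genes) or in WT (0.793% and 0.307%). In the upstream flank 0 were called in KO (0.207%) and 1 in WT (0.111%), and in the downstream flank 2 in KO (0.401%) and 0 in WT (0.731%). The WT call was Dkk1, 50.8% at 30 ppm against 70.7% at 3 ppm (adjusted p = 0.00023, Fisher's exact test). The KO calls were Wnt7a, 30.6% against 48.5% (3.9e-05), and Fzd5, 43.8% against 28.1% (0.031). Both KO calls were lost with CpGs of 10 or more reads, with thinned reads, at a limit of 20 points and with the level as the mean over CpGs, and the Dkk1 call at 20 points. By limma no member was called for diet in any place. Of all genes, 0% of start windows, 0.00504% of upstream flanks, 0% of downstream flanks and 0.0358% of gene bodies were called. The smallest adjusted p over all genes was 0.0077 (limma), in the gene body. At an unadjusted p under 0.05, limma called 4.64% to 5.14% of all genes for diet in the 4 places. Members were not counted at that limit. The KO and WT comparisons of a diet share no library with those of the other diet, but each diet comparison shares its libraries with them.

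The KO minus WT difference itself differed between the diets in 1 start window (1.28% of all genes), 0 upstream flanks (0.156%), 2 downstream flanks (0.876%) and 0 gene bodies (0.757%), by a Wald test of the difference between the log odds ratios. In the Wnt8b start window it was 19.97 points at 30 ppm and 3.31 at 3 ppm (adjusted p = 0.029). In the Fzd1 downstream flank it was 38.8 and 24.3 points (adjusted p = 0.0084). In the Wnt7a downstream flank it was -1.70 and 21.2 points (adjusted p = 0.00057), with KO at 3 ppm as the high library.

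The authors called DMRs between single libraries, and these were matched to each gene from 3 kb before its start to its end. Hyper DMRs of KO against WT lay at 8 of 32 members at 30 ppm (11.6% of all genes) and at 10 at 3 ppm (11.9%). No member had a hypo DMR of KO against WT (0.12% of all genes at 30 ppm and 0.0817% at 3 ppm), and none had a DMR between diets, hyper or hypo in KO (0.346% and 0.187%) or in WT (0.24% and 0.178%). Merged where they overlapped, the DMRs gave 19 stretches at 13 members, of which 5 were called in both diets, 6 at 30 ppm only and 8 at 3 ppm only. The levels that follow were part of what chose these regions in the calling pair and carry no test.

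The 5 called in both diets were at Dkk1, Wnt3, Wnt3a, Fzd1 and Wnt8b, where parts of the sequence were printed above. Over the whole stretches the level at 30 ppm was 79.0% in KO against 24.3% in WT at Dkk1, 76.2% and 30.1% at Wnt3, 85.7% and 44.2% at Wnt3a, 69.7% and 20.05% at Fzd1, and 56.3% and 20.3% at Wnt8b. At 3 ppm it was 80.7% and 31.3%, 85.5% and 45.4%, 76.7% and 33.3%, 62.9% and 27.8%, and 60.6% and 15.9%. All 13 scored CpGs at Dkk1 and all 40 at Fzd1 were higher in KO in both diets, as were 16 of 17 at Wnt3, 7 of 8 at Wnt3a and 6 of 7 at Wnt8b. The Wnt3 stretch lies 36944 bases and the Wnt8b stretch 16093 bases from the start, where the start windows and flanks do not reach.

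Several DMRs called in 1 diet had a like level in the other. Upstream of Wnt11 (10 CpGs) the DMR called at 30 ppm read 74.7% in KO and 36.8% in WT, and in the 3 ppm libraries 72.9% and 39.7%. In Fzd10 (5 CpGs) it read 55.6% and 14.3%, and at 3 ppm 48.8% and 16.7%. Upstream of Wnt9a (5 CpGs) the DMR called at 3 ppm read 68.9% and 40.7%, and at 30 ppm 75.5% and 43.2%. In an intron of Ctnnb1 (9 CpGs), by contrast, the DMR called at 30 ppm read 70.9% and 25.5%, and at 3 ppm 64.3% and 52.1%. In Wnt8b just after the start (5 CpGs) it read 87.1% and 51.7%, and at 3 ppm 67.9% and 62.2%. Near the Wnt2 start (8 CpGs) the DMR called at 3 ppm read 53.3% and 10.6%, and at 30 ppm 36.05% and 11.8%. The DMRs called at 3 ppm in Wnt6, Fzd5 and Axin2 held no CpG with 5 reads in all 4 libraries.

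**Figure D5:**
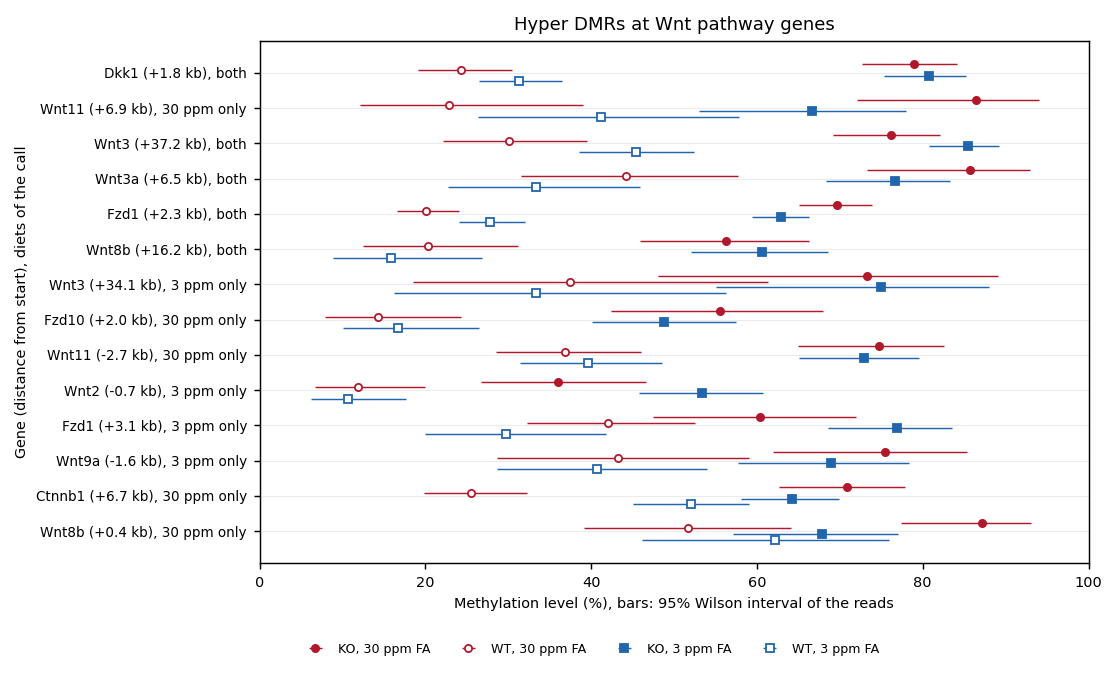
Methylation level (%, x axis) in the 4 libraries at the 14 hyper DMR stretches of KO against WT with at least 3 scored CpGs (rows, with the distance of the stretch from the gene start and the diets in which it was called). Bars are 95% Wilson intervals of the reads, which cover counting error only. In rows called in both diets the KO points lie to the right of the WT points in either diet, and at Ctnnb1 (+6.7 kb) WT at 3 ppm, 52.1%, lies nearer to KO than WT at 30 ppm, 25.5%.

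Of 49 other genes of the pathway, start windows of 48 and the other places of all 49 were scored, and 15 genes (30.6%) were called hyper in the same place in both diets, none hypo; the share of all genes scored in every place was 14.6%. Start windows were called hyper in 12 at 30 ppm and 10 at 3 ppm (25% and 20.8%, against 15.4% and 16.6% of all genes), and upstream flanks in 4 and 6 (8.16% and 12.2%, against 5.21% and 4.56%). Downstream flanks were called in 11 and 9 (22.4% and 18.4%, against 12.4% and 10.5%), and gene bodies in 3 and 4 (6.12% and 8.16%, against 3.07% and 2.72%). They included agonists and inhibitors alike. Rspo1, which encodes an R-spondin that strengthens Wnt signals, read 52.8% in KO against 20.3% in WT at 30 ppm in its downstream flank, and 41.8% and 19.9% at 3 ppm. Its relative Rspo2 read 51.6% and 32.9%, then 59.8% and 33.1%, in the same place. Rnf43, whose ubiquitin ligase removes Frizzled from the membrane, read 43.2% and 18.3%, then 51.1% and 22.8%, in the start window. Dkk3, a relative of Dkk1, read 57.3% and 28.7%, then 52.4% and 31.5%, and Kremen1, a receptor of Dkk1, 54.7% and 38.5%, then 53.7% and 35.4%. Dvl3, a Dishevelled gene that relays the Frizzled signal, read 23.4% and 6.78%, then 18.4% and 4.13%. The nuclear cofactor Pygo2 (51.9%, 33.5%; 58.0%, 44.1%) was called in the start window, Nkd1 (65.3%, 46.6%; 63.8%, 48.1%) in the upstream flank, and Kremen2 (48.3%, 35.98%; 49.2%, 32.2%) and Sost (25.8%, 15.7%; 29.0%, 12.3%) in the gene body. KO above WT in both diets is how these 10 genes were chosen, so no test is given. Tcf7, Rspo4, Fzd6, Notum and Sfrp5 made up the 15.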

How the data were processed

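Per the labels and the study's methods, the authors trimmed WGBS reads (Trim Galore 0.6.10), aligned them to GRCm38 (Bismark 0.23.1), removed duplicates and combined the strands. The deposited tables list per CpG the methylated fraction and the count of covering reads, neither of which the authors normalised, and methylated reads are their product. The deposited DMR lists hold positions and no fold or test value. Regions and genes came from GENCODE vM21 (GRCm38).

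Reads were summed over scored CpGs of each place of each gene. A read is counted at every CpG it covers, so these counts are not independent and p-values are too small and intervals too narrow. Both cover counting error alone. Fisher's exact test, a Wald test (0.5 added to counts) and limma 3.58.1 in R 4.3.3 were run over all genes and adjusted by Benjamini-Hochberg. The rest used Python 3.11.15, numpy 2.4.6 and scipy 1.17.1. Fisher's exact test, the Wald test and limma were tested on simulated reads, limma in start windows and gene bodies only. The simulated reads were independent and held the same KO change in both diets. Dependence of reads, spread between embryos and a true difference between diets were therefore not covered. The other steps were not tested in this way. Members and lists were chosen with earlier results of these data known. Every member called in KO against WT is named, grouped by role, place and diets of the call, then by mean difference. Others are given by range. Of the other pathway genes, the 10 with the largest mean difference among those called in both diets are given with values.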

Additional observations from a re-analysis of the deposited data

Results flagged for a closer look

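At 3 members the KO minus WT difference at 30 ppm differed from that at 3 ppm by the Wald test. The difference between the differences was -22.9 points in the Wnt7a downstream flank, 16.7 points in the Wnt8b start window and 14.5 points in the Fzd1 downstream flank. At Wnt7a the 4 libraries read 30.6% (KO) and 32.3% (WT) at 30 ppm, and 48.5% (KO) and 27.2% (WT) at 3 ppm. Each group is 1 embryo, so embryo and diet cannot be told apart.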

How the results depend on the processing

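Counts are of members, with the value of the report in brackets. In the flanks and gene bodies the members' share called hyper in KO was above that of all genes at every setting; in start windows it was below at 4, at 20 points and 2 reads (30 ppm) and at 10 reads and 500 bases (3 ppm). Hyper calls of KO against WT fell with a limit of 20 points to 1 (6) and 3 (8) in start windows at 30 and 3 ppm, 2 (6) in upstream flanks at 30 ppm, 4 (8) and 4 (11) in downstream flanks, and 2 (5) and 2 (6) in gene bodies. The shares of all genes were 3.75% and 3.82%, 1.10%, 2.93% and 2.27%, and 0.537% and 0.496%. With z divided by its robust SD over all genes, hyper calls were 2 and 1 in start windows and 2 in upstream flanks at 30 ppm. They were 4 and 5 in downstream flanks, and 2 and 2 in gene bodies. The shares of all genes were 2.11% and 1.94%, 1.57%, 3.08% and 2.80%, and 0.660% and 0.865%. The calls for Wnt2 (start), Wnt11 (upstream), Fzd1 and Dkk1 (downstream and gene body) passed the scaled z in both diets. At a minimum of 10 reads, which leaves 16 start windows, 24 upstream and 21 downstream flanks, they were 2 (8) in start windows at 3 ppm, 3 (6) in upstream flanks at 30 ppm, and 5 (8) and 5 (11) in downstream flanks (14.4%, 3.14%, 8.71% and 6.96% of all genes). At a minimum of 2 reads they were 3 (6) in start windows at 30 ppm (12.8%). Start windows of 500 bases each side, scored at 21 members, gave 3 (6) and 2 (8) (7.38% and 10.1%), with Wnt9b at -0.915 and -2.61 points and Lrp5 at -0.174. Genes beyond 3 kb of the start gave 3 (5) and 3 (6) (2.00% and 1.75%).

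Diet calls in KO downstream flanks (2) were 0 at 10 reads, 1 at 2 reads, 0 with thinned reads, 0 at 20 points, 1 with the scaled z and 0 with the mean over CpGs. The WT upstream call (1) was 0 at 20 points, and principal transcript starts gave 1 WT downstream call (0). Differences between diets were 0 (1) in start windows at 10 reads, with thinned reads and with 500-base windows. In downstream flanks (2) they were 0 at 10 reads, 1 at 2 reads and 1 with thinned reads, and in gene bodies (0) 1 at 10 reads and 1 over whole genes. Genotype calls by limma in start windows (6) were 0 at 10 reads, with 500-base windows and on the fraction scale. In upstream flanks (3) they were 0 at 10 reads and 0 with thinned reads, in downstream flanks (4) 0 at 10 reads, and in gene bodies (8) 5 at 2 reads and 14 on the fraction scale. Why these counts moved was not tested. Of 407 values of called windows under all settings, 291 kept direction and call, 113 kept direction alone and 3 changed sign. The other 220 counts stayed within 1.5 times, which includes counts of 0 that stayed 0.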
